A study of Mus musculus with 8 samples.

Results

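The genes described here are 10 protein-coding genes of G1 control, out of 21774 on the mouse chromosomes. They were chosen by name: 5 cyclin genes (Ccnd1, Ccnd2, Ccnd3, Ccne1 and Ccne2) and 5 inhibitor or checkpoint genes (Cdkn1a, Cdkn1b, Cdkn2a, Rb1 and Trp53). The libraries were ATAC-seq, in which Tn5 transposase inserts adapters into open DNA, from 8 samples of RHKI, a mouse embryonic stem cell line derived from E14Tg2a that carries an HA-tagged Rnaseh1 knock-in. The 4 control samples were untreated, and the 4 Dox samples received doxycycline at 500 ng/ml for 48 h. All 8 carried the knock-in and grew in 2i/LIF medium with CHIR-99021 at 3 µM, PD0325901 at 1 µM and 2% FBS. The sources used here do not give the promoter that drives the knock-in, nor whether the line was 1 clone or the replicates separate cultures.

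The peaks came as 1 list of 76996 positions for the whole series, with no height, count or group. Dox could therefore not be compared with control at any of these genes. Replicate errors and the depth behind the peaks are unknown. The RefSeq gene table gives outer bounds, called the lower and upper end here by coordinate, without exons. A peak was at an end when it overlapped the 1 kb on either side of that bound. It was distal when its centre lay over 1 kb from the ends of all protein-coding genes. Of 7 genes that mark naive embryonic stem cells, 6 had a peak at an end and Esrrb had none, where 61.7% of protein-coding genes had one. Of 4 fibroblast genes, which feeder cells would express, Col1a1 and Col1a2 had one and Col3a1 and Thy1 had none, a count near that share. Any part of feeder cells in the peaks below was not tested.

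D-type cyclins bind CDK4 and CDK6 in response to mitogens, and E-type cyclins bind CDK2 near the start of S phase. Both kinases phosphorylate the retinoblastoma protein, which otherwise holds E2F factors in check. The CIP/KIP proteins p21 and p27 restrain these kinases, the INK4 proteins restrain CDK4 and CDK6, and p53 induces p21 after DNA damage. Mouse embryonic stem cells are known for a short G1 phase, with high cyclin E activity and little D-type cyclin and INK4 activity. Accessible chromatin marks where factors can reach the DNA, and does not measure how much RNA a gene makes.

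For 6 of the 10 genes (Ccnd3, Ccne1, Cdkn1a, Cdkn1b, Cdkn2a and Trp53) RefSeq promoter windows were at hand, 9 windows in all, each running from 250 bp before to 50 bp after an annotated start on GRCm38.p6. The 250 bases before 6 of these starts are printed from RefSeq, 5′ to 3′ on the gene's strand, because they carry the differences described below. Capitals mark bases inside a deposited peak.
Ccne1, minus strand, chr7:38107491-38107740: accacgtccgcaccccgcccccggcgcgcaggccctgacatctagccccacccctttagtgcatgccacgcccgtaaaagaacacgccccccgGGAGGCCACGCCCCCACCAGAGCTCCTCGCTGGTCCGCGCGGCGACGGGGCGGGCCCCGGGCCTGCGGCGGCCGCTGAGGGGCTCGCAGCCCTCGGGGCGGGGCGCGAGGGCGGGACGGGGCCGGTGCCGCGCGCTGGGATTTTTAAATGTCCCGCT
Cdkn1a first start, plus strand, chr17:29090729-29090978: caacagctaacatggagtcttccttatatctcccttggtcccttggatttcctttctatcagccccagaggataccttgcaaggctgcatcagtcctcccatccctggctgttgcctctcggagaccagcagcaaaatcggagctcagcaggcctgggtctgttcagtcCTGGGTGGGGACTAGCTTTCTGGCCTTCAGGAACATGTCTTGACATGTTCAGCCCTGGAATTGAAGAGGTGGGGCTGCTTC
Cdkn1a second start, plus strand, chr17:29093519-29093768: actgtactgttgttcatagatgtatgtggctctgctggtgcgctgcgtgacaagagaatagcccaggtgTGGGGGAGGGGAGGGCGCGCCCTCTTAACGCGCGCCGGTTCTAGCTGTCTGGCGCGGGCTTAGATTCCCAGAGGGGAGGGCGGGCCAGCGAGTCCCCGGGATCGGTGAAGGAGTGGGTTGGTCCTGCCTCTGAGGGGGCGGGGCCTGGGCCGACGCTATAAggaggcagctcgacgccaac
Cdkn2a first start (Arf), minus strand, chr4:89294620-89294869: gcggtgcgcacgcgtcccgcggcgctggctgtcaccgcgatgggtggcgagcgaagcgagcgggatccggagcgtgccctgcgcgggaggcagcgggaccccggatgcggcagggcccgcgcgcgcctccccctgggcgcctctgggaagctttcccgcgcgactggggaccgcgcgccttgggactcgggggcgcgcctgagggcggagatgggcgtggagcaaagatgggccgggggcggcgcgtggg
Cdkn2a second start (Ink4a), minus strand, chr4:89282193-89282442: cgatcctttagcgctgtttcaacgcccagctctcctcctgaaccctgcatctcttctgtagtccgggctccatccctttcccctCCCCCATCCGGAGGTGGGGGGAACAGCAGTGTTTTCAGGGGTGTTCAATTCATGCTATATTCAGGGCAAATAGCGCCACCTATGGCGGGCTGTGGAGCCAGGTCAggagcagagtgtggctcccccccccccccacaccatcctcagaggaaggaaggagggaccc
Trp53, plus strand, chr11:69580109-69580358: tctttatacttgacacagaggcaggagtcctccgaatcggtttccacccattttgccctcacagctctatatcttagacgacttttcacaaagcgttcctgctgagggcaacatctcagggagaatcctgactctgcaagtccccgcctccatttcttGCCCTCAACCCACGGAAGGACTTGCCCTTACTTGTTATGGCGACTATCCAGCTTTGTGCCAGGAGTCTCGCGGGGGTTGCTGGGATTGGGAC

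All 5 cyclin genes and all 5 inhibitor or checkpoint genes had a peak at an end, where 61.7% of protein-coding genes had one. The count was the same in both groups. With only peaks wider than the median of all peaks it was 4 of 5 cyclin genes and 2 of 5 inhibitor and checkpoint genes, against 41.5% of protein-coding genes. Ccnd3, Ccne1, Ccne2, Cdkn1b and Trp53 had 2 peaks there, so that 5 of 10 genes held 2 or more, against 24.0% of protein-coding genes. Each of these pairs lay at the same end of its gene, and the outer peaks of Ccnd3 and Trp53 were just within the 1 kb limit, at 960 and 963 bp. A peak at both ends was found in 0 of 10, against 9.43% of protein-coding genes. In 8 genes a peak reached within 100 bp of the gene bound. The exceptions were Ccnd2, whose end peak began 372 bp beyond its upper bound, and Cdkn2a, whose end peak lay 445 bp beyond. The Cdkn2a peak was also at the lower end of the lncRNA gene Gm12610 (89295180), and closer to that bound than to Cdkn2a.

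**Figure D1:**
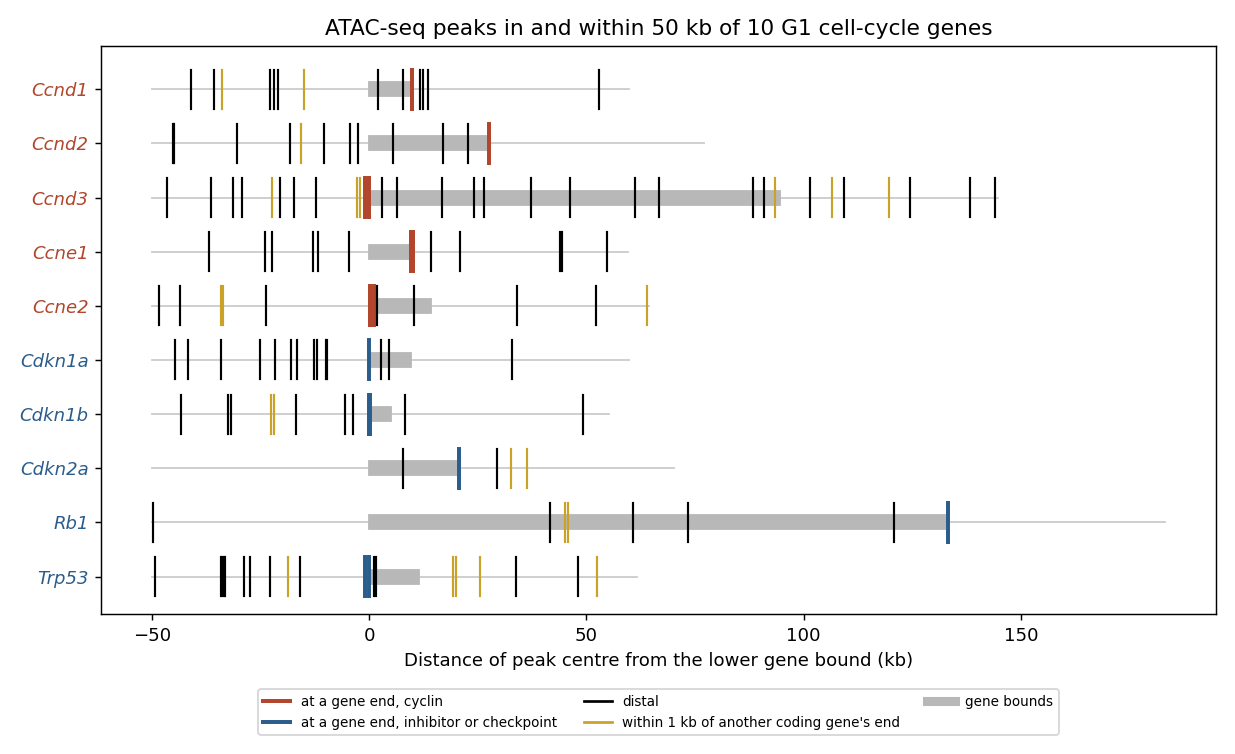
Peaks in each gene and the 50 kb on either side, by distance of the peak centre from the lower gene bound in kb. Grey bars are gene bounds, thick coloured marks are peaks at an end (red, cyclins; blue, inhibitors and checkpoint genes), black marks are distal peaks and gold marks lie within 1 kb of another coding gene's end. Cdkn2a and Rb1 have the fewest marks, with 5 and 8 peaks, and Ccnd3 the most, with 31.

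Among the D cyclins, which carry mitogen signals to CDK4 and CDK6, Ccnd3 had the most peaks. Ccnd3 (gene ID 12445, chr17:47505051-47599689) had 31 peaks in the gene and the 50 kb around it, 24 of them distal, and 0.836% of protein-coding genes had as many distal peaks. Its 2 annotated starts lie at 47505051 and 47593467, and both windows held a peak. Counted along the gene from the start, the peak at the first ran from -159 to 1 bp (chr17:47504892-47505052), and that at the second from -114 to 42 bp (chr17:47593353-47593509). A second end peak, 960 bp below the gene, was counted both at the end and as distal by its centre.

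Inside Ccnd3 lay 12 peaks over 1 kb from both ends, or 1.27 per 10 kb of gene. The longest stretch without a peak in its whole span was 21.4 kb, or 11.0% of the span, and 99.4% of protein-coding genes had at least that share. By this measure few genes had a shorter bare share than Ccnd3. Within 50 kb lie 6 protein-coding genes, Taf8, Bysl, Med20 and Usp49 among them. Of the 31 peaks, 6 lay at the ends of such neighbours, and these are not among the 24 distal peaks. Whether the number of neighbours bears on the count was not tested.

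Ccnd1 (gene ID 12443, chr7:144929931-144939831) had 1 end peak, across its upper bound (chr7:144939764-144939878), and 11 distal peaks. Beyond this end followed a group of 3 distal peaks, with centres 1849, 2491 and 3647 bp outside the gene. A peak-free stretch of 39.2 kb came after them, or 35.6% of the span, and 49.7% of protein-coding genes had at least that share. On the other side 3 distal peaks lay within the bounds of the lncRNA gene Gm39119. Its coding neighbours on that side are LTO1, which overlaps the lower bound, and Fgf15, 28978 bp away, and each had 1 of the remaining 2 peaks at an end.

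Ccnd2 (gene ID 12444, chr6:127125162-127152188) had 1 end peak, beyond its upper bound (chr6:127152560-127152727), and 10 distal peaks. All of the distal peaks lay inside or below the gene, with 3 and 7 respectively, and 0 in the 50 kb above it. The peak-free stretch on that side ran for 49.5 kb, or 38.9% of the span. At least that share was found in 44.3% of protein-coding genes, so such a stretch is common. Of those below, 2 each had their centre in Fgf23 and in Tigar, a p53 target gene that encodes a regulator of glycolysis. The 3 D cyclins thus differed in layout. Ccnd2 had no distal peak on the upper side, and Ccnd1 had a cluster beyond its upper end. Ccnd3 had 12 peaks deeper inside the gene, where its longest peak-free stretch of 21.4 kb also lay.

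The E cyclin genes, which encode the activators of CDK2, each had 2 peaks at 1 end. Ccne1 (gene ID 12447, chr7:38097984-38107490) had them at its start. The first ran from -157 to 47 bp around the start (chr7:38107443-38107647, 205 bp wide) and so covered the stretch in capitals above. The second lay 467 bp beyond the gene bound (chr7:38107957-38108057). Ccne1 had 0 protein-coding genes within 50 kb and 0 peaks deeper inside, yet 11 distal peaks. Of these, 5 lay in the bounds of the lncRNA gene Gm30771. With peaks at the ends of any annotated gene left out, the distal count was 8.

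Ccne2 (gene ID 12448, chr4:11190433-11204779) had the widest end peak of the 10 genes. That peak measured 593 bp (chr4:11191234-11191826), which 140 of 17286 peaks at protein-coding gene ends equalled or exceeded (0.81%). It began 801 bp inside the lower bound, and a peak of 203 bp (chr4:11190465-11190667) lay between it and that bound, where the lncRNA gene A630034I12Rik overlaps Ccne2. Because its centre was over 1 kb from the bound, the wide peak was also counted as inside and distal. Ccne2 had 8 distal peaks in all, with 3 on the lower side, 3 in the gene and 2 on the upper side, where its bounds overlap those of Ints8.

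**Figure D2:**
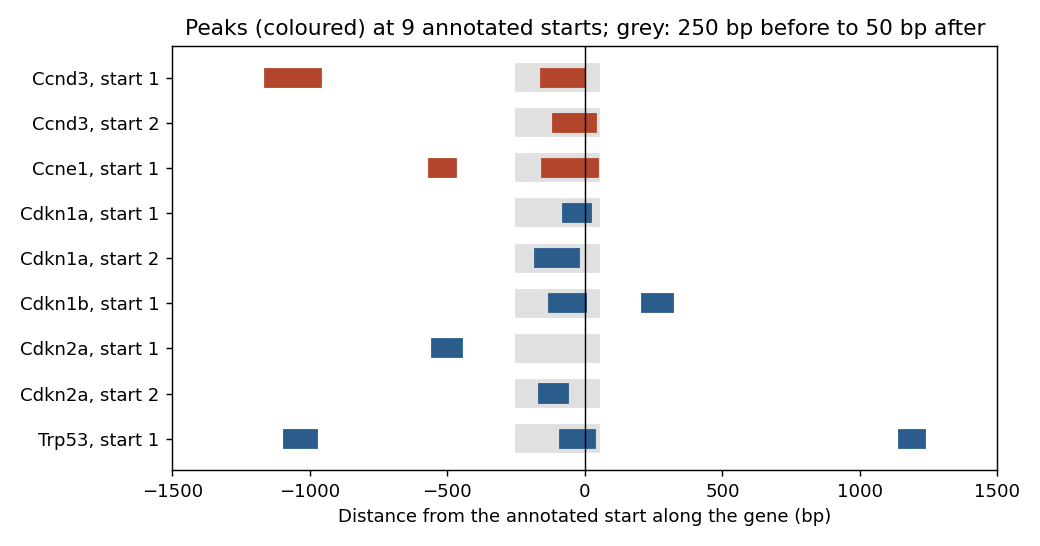
Peaks around the 9 annotated starts of 6 genes, by distance from the start in bp along the direction of transcription. Grey boxes are the promoter windows and coloured boxes are peaks (red, cyclins; blue, inhibitors and checkpoint genes). In 8 of 9 windows there is a peak, and the first start of Cdkn2a is the exception.

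A peak overlapped 8 of the 9 promoter windows, against 50.2% of the 21263 windows of protein-coding genes. Ccnd3, Cdkn1a and Cdkn2a each have 2 annotated starts. Of 962 protein-coding genes with 2 starts at least 1 kb apart, 17.7% had a peak in both windows, as Ccnd3 and Cdkn1a did. Another 16.5% had one in the downstream window only, as Cdkn2a did. The peaks at the downstream starts of Ccnd3, Cdkn1a and Cdkn2a lie within the outer gene bounds. They were therefore counted as inside and distal, although each lies at an annotated start. In 34.2% the peak was in the upstream window only, and in 31.6% in neither.

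Cdkn1a (gene ID 12575, chr17:29090979-29100722) encodes p21, the CIP/KIP inhibitor induced by p53. The peak at its first start (chr17:29090898-29091003, 106 bp) ran from -81 to 24 bp around that start. Within it, from -51 to -32 bp, lay the 20 bases that follow, where capitals mark the whole element.
Cdkn1a p53 element, plus strand, chr17:29090928-29090947: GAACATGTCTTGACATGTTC
This is a pair of adjacent p53 half-sites with at most 1 mismatch to the consensus, a form found in 14 of the 21263 windows (0.0658%). The search for the pair was chosen after the sequence was seen. A match describes the letters and does not show binding.

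The window of the second Cdkn1a start (29093769), with its peak from -181 to -21 bp (chr17:29093588-29093748), differed in composition. It held 2 GC boxes and 64.7% G and C, with a ratio of observed to expected CpG of 0.786. The window of the first start held 0 GC boxes and 54.7% G and C, with a CpG ratio of 0.0892. Both windows held a peak all the same. Around Cdkn1a lay 14 distal peaks, a number that 6.98% of protein-coding genes reached, and 11 of them were on the lower side, before the gene. The lncRNA gene Trp53cor1, known as lincRNA-p21 and itself induced by p53, held 6 of these. The distal count of Cdkn1a was 11 when peaks at the ends of any annotated gene, lncRNA genes included, were left out.

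Cdkn1b (gene ID 12576, chr6:134920401-134925525) encodes p27, the second CIP/KIP inhibitor of the set. Of its 2 end peaks, 1 lay across the start (chr6:134920272-134920405) and 1 lay 208 bp inside the gene (chr6:134920609-134920720). At 5.12 kb it is the shortest of the 10 genes, and 0 peaks lay deeper inside. It had 8 distal peaks, 6 below and 2 above, and 3 of them lay in the bounds of Gpr19.

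Cdkn2a (gene ID 12578, chr4:89274473-89294619) encodes Ink4a and Arf from separate starts, Ink4a restraining CDK4 and CDK6 and Arf restraining MDM2. It had the lowest counts, with 5 peaks in all and 2 distal, and 75.2% of protein-coding genes had at least as many distal peaks. The 250 bases before the Arf start (89294619) held 0 bases in a peak, and the nearest peak ran from -555 to -445 bp (chr4:89295064-89295174). The Ink4a start (89282192) had a peak of 105 bp, from -166 to -62 bp (chr4:89282254-89282358). That peak was 1 of the 2 counted as distal, and the only 1 counted as inside. No peak lay in the 57.8 kb stretch from 50 kb below the gene to the Ink4a peak. This was 48.1% of the span, and 32.4% of protein-coding genes had at least that share.

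Of the 5 peaks around Cdkn2a, 2 were at the ends of its paralog Cdkn2b, 11670 bp away. The wider, at the upper end of Cdkn2b (chr4:89310582-89311011), measured 430 bp, against 111 bp for the end peak of Cdkn2a. Composition did not follow the peaks here. The Arf window was the richest of the 9 in G and C at 77.0%, with a CpG ratio of 1.04, while the Ink4a window had 60.3% and 0.442. The median over windows with a peak was 62.0% and 0.783, and over windows without one 49.0% and 0.241.

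Rb1 (gene ID 19645, chr14:73192858-73325951) encodes the pocket protein that the cyclin-dependent kinases act on. It had 1 end peak, 11 bp beyond its upper bound (chr14:73325962-73326099). Rb1 is the longest of the 10 genes at 133.0 kb and held 6 peaks deeper inside, or 0.451 per 10 kb. At least that number was found in 7.05% of protein-coding genes, and at least that rate in 28.4%. Of the 6 peaks, 2 lay at the lower end of Lpar6, a receptor gene within the bounds of Rb1. On the upper side the next 50 kb held 0 distal peaks, and 1 lay on the lower side at its far edge (chr14:73143025-73143449, 425 bp). A stretch of 90.9 kb between that peak and the first peak in the gene held no peak. This was 39.0% of the span, and 44.2% of protein-coding genes had at least that share.

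Genes of like length were also set side by side. Among 1555 protein-coding genes of 80 to 140 kb the median was 3 peaks inside, with quartiles of 1 and 6, and 7 distal peaks, with quartiles of 3 and 12. Ccnd3 lay above both upper quartiles with 12 and 24. Rb1, with 6 and 5, lay at the upper quartile for peaks inside and below the median for distal peaks. Among 2225 genes of 8 to 12.5 kb the median was 5 distal peaks, with quartiles of 2 and 8. There the inhibitor and checkpoint genes had more than the cyclins, with 14 at Cdkn1a and 13 at Trp53 against 11 at Ccnd1 and 11 at Ccne1. Among 3334 genes of 20 to 35 kb, with the same median and quartiles, Ccnd2 had 10 and Cdkn2a 2. The order of cyclin and inhibitor genes therefore changed from 1 length class to another.

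Trp53 (gene ID 22059, chr11:69580348-69591873) encodes p53 and lies head to head with Wrap53, whose bound is 98 bp away. Both of its end peaks were also at an end of Wrap53. The peak at chr11:69580267-69580395 ran from -92 to 36 bp around the Trp53 start at 69580359. The promoter windows of the 2 genes share 208 bp, so that this peak cannot be assigned to 1 of them. Its stretch held 1 p53 half-site, from -75 to -66 bp, and half-sites occurred in 7.37% of all windows.

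Around Trp53 lay 20 peaks, 13 of them distal, a number that 8.98% of protein-coding genes reached. It also had the most protein-coding neighbours, with 7 within 50 kb. Of the distal peaks 5 lay in the bounds of Dnah2, and 4 of these followed each other between chr11:69546096 and 69547307. Inside Trp53 2 peaks lay 1200 and 1640 bp from the lower bound, by their centres.

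Over the 9 promoter windows, GC boxes (GGGCGG) were the most frequent of the 11 motifs searched, the p53 half-site and pair among them, in 7 windows against 46.2% of all windows and 70.2% of windows with a peak. CCAAT boxes (CCAAT) were in 4 windows, against 38.2% of all. An E2F word (TTTCCCGC, TTTCGCGC, TTTGCCGC or TTTGGCGC) was in 1, the Arf window, against 2.85%. TATAAA (12.6%) and the E-box CACGTG (7.84%) were each in 1, the Trp53 window. The TATAAA match was on the opposite strand, from -248 to -243 bp and outside the peak, far from the start. The words CTTTGAT for TCF/LEF, TTCNNNGAA for STAT, ATGCAAAT for octamer factors and TGACGTCA for CREB were in 0 windows, against 3.22%, 7.69%, 1.66% and 2.23% of all. Both strands were searched and matches of different motifs were allowed to overlap. GC skew, the excess of G over C on the gene's strand, ran from -0.165 at Trp53 to 0.258 at the second Cdkn1a start, with a median of -0.0108 against 0.0156 over all windows.

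The end peaks of the cyclin genes were wider than those of the inhibitor and checkpoint genes, a comparison chosen after the values were seen. The cyclin genes had 8 end peaks of 101 to 593 bp, with a median of 185 bp. The inhibitor and checkpoint genes had 7 of 106 to 138 bp, with a median of 120 bp. The median over all peaks at protein-coding gene ends was 134 bp. Of the cyclin peaks 6 of 8 exceeded 138 bp, as did 45.6% of all peaks at gene ends. By the widest end peak of each gene, Ccnd1 at 115 bp lay among the inhibitors, and Ccnd2 (168 bp), Ccnd3 (202 bp), Ccne1 (205 bp) and Ccne2 (593 bp) lay above all 5 of them. The widest peaks of Ccnd3 and Ccne2 had their centres over 1 kb from the bound and were also counted as distal. The other end peaks of these genes measured 161 bp at Ccnd3 and 203 bp at Ccne2. Genes of a group are not replicates, so the difference was not tested. Peak width also rests on a caller and a depth that the sources used here do not name.

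**Figure D3:**
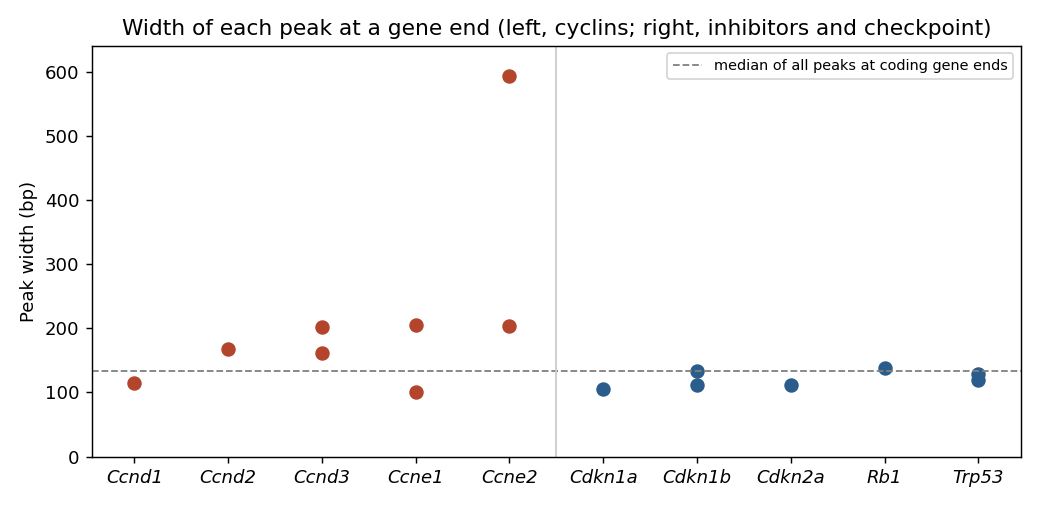
Width in bp of every peak at an end of the 10 genes, 1 point per peak, with cyclins in red on the left and inhibitor and checkpoint genes in blue on the right. The dashed line is the median of all peaks at protein-coding gene ends, 134 bp. Blue points lie at 138 bp or less, and 6 of 8 red points lie above them.

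In the surroundings the groups overlapped. Distal peaks numbered 8 to 24 per cyclin gene with a median of 11, and 2 to 14 per inhibitor or checkpoint gene with a median of 8, against a median of 5 over all protein-coding genes. From the lowest, the order was Cdkn2a with 2, Rb1 with 5, Ccne2 and Cdkn1b with 8 each, Ccnd2 with 10, Ccnd1 and Ccne1 with 11 each, Trp53 with 13, Cdkn1a with 14 and Ccnd3 with 24. The inhibitor and checkpoint genes thus held the 2 lowest places and, below Ccnd3, the next 2 from the top. With distal counted from the ends of all annotated genes, lncRNA genes included, Cdkn1a had 11, below Trp53 at 13, and Ccne1 had 8. The group medians were then 10 for cyclins and 7 for inhibitor and checkpoint genes. Under the first definition of distal, without Cdkn2a or without Rb1, the median of the inhibitor and checkpoint genes was 10.5, near the 11 of the cyclins. With only peaks wider than the median of all peaks, the order of the groups turned, with a median of 4 for cyclins and 6 for inhibitor and checkpoint genes.

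**Figure D4:**
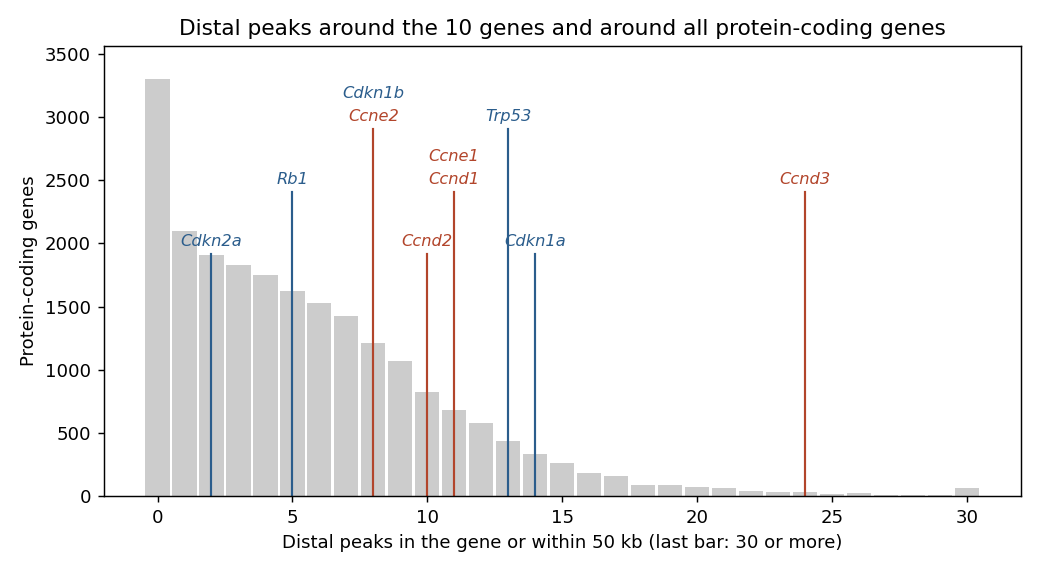
Number of distal peaks in the gene or within 50 kb, with grey bars for the number of protein-coding genes at each count and lines for the 10 genes (red, cyclins; blue, inhibitors and checkpoint genes). Cdkn2a at 2 and Rb1 at 5 lie in the bulk of all genes, and Ccnd3 at 24 lies in the tail.

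Scaled to the length searched, Cdkn1a came before Ccnd3, and Cdkn2a and Rb1 were again lowest. Distal peaks per 100 kb were 12.8 at Cdkn1a, 12.3 at Ccnd3 and 11.7 at Trp53, then 10.0 at Ccnd1 and at Ccne1. They were 7.87 at Ccnd2, 7.61 at Cdkn1b and 7.0 at Ccne2, and 2.15 at Rb1 and 1.66 at Cdkn2a. The median over protein-coding genes was 3.3. A peak deeper inside the gene was present in 4 of 5 genes of each group, against 45.9% of protein-coding genes, the genes without being Ccne1 and Cdkn1b. Peaks inside numbered a median of 3 per cyclin gene and 2 per inhibitor or checkpoint gene, or 1.27 and 0.496 per 10 kb. Over all protein-coding genes both medians were 0.

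Of 48 other genes of the same pathways, 43 had a peak at an end, against 61.7% of protein-coding genes. The 5 without were E2f6, a repressive E2F, Skp2, which targets p27 for breakdown, the p53 regulator Mdm4, the p53-binding repair factor Trp53bp1, and Pmaip1, which encodes the p53 target NOXA. The distance from an end to the closest peak was, in the same order, 2599, 8809, 2358, 6659 and 2607 bp. Ends are the outer gene bounds, so a peak at a start within a gene is not counted here. Peaks deeper inside these genes numbered, in the same order, 0, 4, 5, 6 and 1. Whether any of them lay at an annotated start was not checked. All 8 genes of kinases and their activators and all 4 of other CDK inhibitors had one. So did 11 of 12 pocket protein, E2F and DP genes, 7 of 8 turnover genes, 5 of 7 p53 regulators and 8 of 9 p53 targets, of which the count for p53 regulators is near the share of all protein-coding genes.

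These pathway genes had a median of 7 distal peaks, from 0 at Chek1 to 22 at Cdk6, which encodes a D cyclin partner. The counts are not scaled to length. Cdk6 is 190.0 kb long and had 7.59 distal peaks per 100 kb searched, which was not the highest rate of its role. Medians by role were 5.5 for kinases and activators and for other CDK inhibitors, 6 for turnover genes, 6.5 for pocket and E2F genes, 7 for p53 regulators and 8 for p53 targets. Beside Cdk6, the highest of each role were Cdkn1c and Cdkn2d with 8, E2f2 with 13, Fzr1 with 14, Mdm4 with 11 and the p53 target Bbc3, which encodes PUMA, with 15. Mdm4 therefore had many distal peaks and none at its outer bounds, while Chek1 had 2 at an end and none distal. Whether a distal peak inside Mdm4 lay at an annotated start was not checked.

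**Figure D5:**
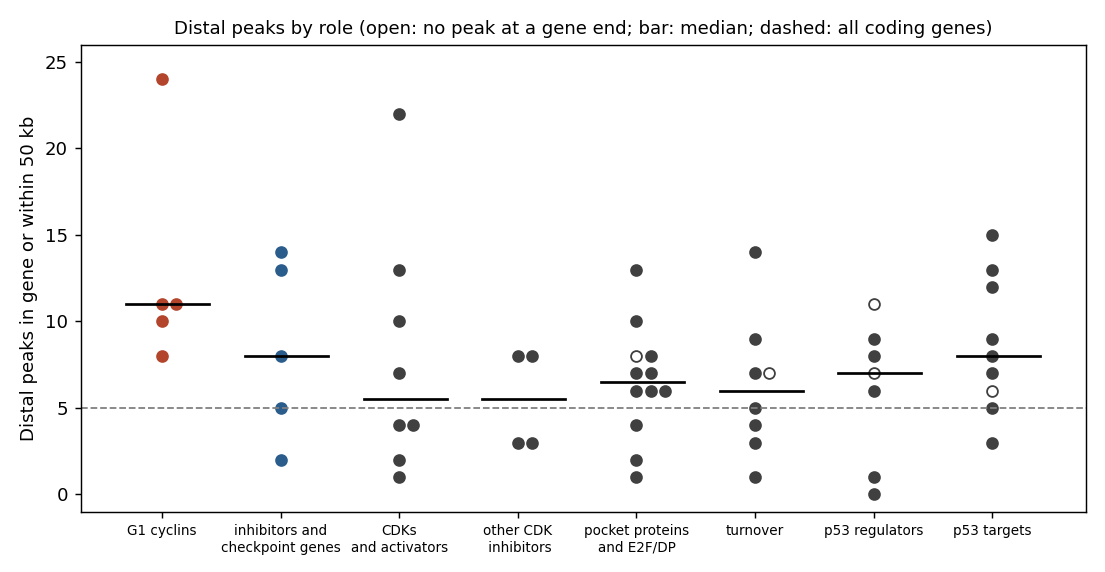
Distal peaks in the gene or within 50 kb for each gene, by role, with filled points for genes with a peak at an end and open points for genes without. Short bars are medians and the dashed line is the median of all protein-coding genes, 5. The medians run from 5.5 for kinases and other inhibitors to 11 for the G1 cyclins.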

How the data were processed

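ATAC-seq was run on 4 control and 4 Dox samples. Other than positions, the deposited list holds no measurement: each of the 76996 lines gives a chromosome, start (0-based) and end, with 0 columns of values per sample. The submitters' processing notes name GRCm38 and, in no stated role, deepTools 3.5.1, HOMER 4.11, SAMtools 1.16.1, Picard 2.10.9, Bowtie2 2.5.0 and Trimmomatic 0.39. How the authors called peaks, at which threshold and whether on pooled samples, was not stated there or in the labels. The planned comparison of Dox with control needs counts and was not run.

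Starts were raised by 1. Gene bounds were read from RefSeq (GRCm38.p6), without scaffolds and patches. Peaks were counted at ends (1 kb, overlap of 1 bp), inside (centre over 1 kb from both ends) and distal (within 50 kb). Promoter sequences matched 6 of 10 genes. Counting was tested on simulated data against a direct count. Members, lists and motifs were chosen with earlier results of these data known, so no p-value is given. All 10 members are named, with the pathway genes that lacked an end peak or led their list in distal peaks. Chek1 was named after its value was seen. The alternatives were other windows, reaches and peak widths. Python 3.11.15, NumPy 2.4.6, pandas 2.3.3 and matplotlib 3.10.9 were used.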

Additional observations from a re-analysis of the deposited data

How the results depend on the processing

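Of 36 alternative values for the 2 groups of genes, 26 stayed within 1.5 times the reported one. The tally depends on which settings were chosen. Values per 10 kb and within 20 or 100 kb are on another scale than the reported ones, and all of them moved. Every median with a gene left out was among the 26. End peaks were found in 5 of 5 genes of each group with windows of 500 bp, 2 kb and 5 kb and by peak centre. With only peaks wider than the median peak, they were found in 4 of 5 cyclin genes but 2 of 5 inhibitor and checkpoint genes, as Ccnd1, Cdkn1a, Cdkn2a and Trp53 lost theirs, and in 41.5% of protein-coding genes. That setting also took the median of peaks inside to 1 in each group and the median of distal peaks in cyclin genes to 4. Per 10 kb of gene, the medians inside were 1.27 for cyclins and 0.496 for inhibitor and checkpoint genes, against 0 over all protein-coding genes. Within 20 kb the medians of distal peaks were 5 for cyclins and 4 for inhibitor and checkpoint genes, and within 100 kb 20 and 15. Leaving out each gene in turn, added after seeing the data, gave 10.5 to 11 for cyclins and 6.5 to 10.5 for the others. No paired analysis was possible because the peaks carry no value per sample. The depth behind the list is unknown, so a gene or stretch without a peak was not shown to be closed.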
